A study of Mus musculus with 14 samples.

Results

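Folinic acid, a reduced folate that cells use without dihydrofolate reductase, was compared with saline in the mouse uterus before implantation, and the effect was averaged over 2 genotypes. All 14 arrays of the study entered the comparison, 7 of uterus after folinic acid and 7 of uterus after saline, and all 45037 probe sets that are not controls, of 45101 on the array, were tested. Genotype was a term of the model, so a constant difference between wild-type and mutant uteri did not enter the estimate. The estimate is an average, which a difference in a single genotype can also move. For many of the genes and lists the values of each genotype are given beside the average.

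The saline group held 4 uterus samples of C57BL/6 wild-type females and 3 of females homozygous for a mutation of Folr4 (Folr4-/-, called mutants here), and the folinic acid group 3 samples of wild-type and 4 of mutant females. Folinic acid was injected into the peritoneum 2 times at 12.5 mg/kg, 10 days and 3 days before mating. Uteri were taken on day 3.5 of gestation, counted from a plug at 0.5, and all females ate the same chow. RNA came from whole uterus, so in these bulk samples fewer cells of a type and less RNA per cell cannot be told apart. The labels call the replicates biological. The number in the title is shared by 2 wild-type saline samples (replicates 2 and 3) and by 2 wild-type folinic acid samples (replicates 1 and 2), and the labels do not say what it means, so the number of animals behind these samples is not known. Over measured probe sets the wild-type folinic acid pair correlated at 0.97, against 0.953 and 0.958 for the other pairs of that group, and the wild-type saline pair at 0.931, against 0.918 to 0.976. The series asks whether genotype alters the response of the uterus to folate given before conception.

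Folate carries single carbon units for the synthesis of purines and thymidylate and for the methionine cycle, which supplies the methyl groups of DNA and histone methylation. Folr4, now Izumo1r, belongs to the folate receptor family by sequence and is known as the egg's receptor for the sperm protein Izumo1 and as a surface protein of regulatory T cells. On day 3.5 of mouse pregnancy the uterus is passing from oestrogen-driven growth of the epithelium to a progesterone-dominated state. Epithelial division stops, stromal cells begin to divide, and the lumen becomes receptive to the blastocyst.

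The signals are on the linear scale of the MAS5 algorithm, with each array scaled to the same trimmed mean of 500. A gene is called measured where its brightest probe set had a mean at or above the median of all probe sets, a signal of 134, which held for 11269 of 18193 genes. Differences are log2 folinic acid minus saline ± the standard error of the limma fit, p-values were corrected by Benjamini and Hochberg's method over all 45037 probe sets, and a call needed an adjusted p under 0.05. The uterine hormone receptors were well measured on every array. Pgr, the progesterone receptor, had signals of 6174 to 17432 and Esr1, the oestrogen receptor, 9956 to 15450. Izumo1r gave 6.14 to 54.8 in the folinic acid arrays and 7.0 to 72.4 in the saline arrays, below the level called measured, so it could not check the genotype labels.

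The fit called 1 probe set, 1427174_at, which was lower after folinic acid, and this was 0.00222% of those tested. Its signal in wild-type saline uteri was 1627, 1365, 1675 and 1045, and in mutant saline uteri 1464, 1050 and 1634. After folinic acid it was 729, 636 and 674 in wild type and 497, 523, 682 and 545 in mutants. No folinic acid array reached the lowest saline array in either genotype. The means were 612 ± 90.0 (SD, n = 7) with folinic acid and 1409 ± 269 (SD, n = 7) with saline. The log2 difference was -1.17 ± 0.13, 2.25-fold lower, with an adjusted p of 0.00451 in limma, and it was -1.05 in wild type and -1.29 in mutants. Leaving out each array in turn kept the adjusted p between 0.000887 and 0.0324. A fit without the trend of the variance on signal gave an adjusted p of 0.0589. Taken alone, neither genotype passed (adjusted p of 0.999974 in wild type and 0.0641 in mutants).

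The platform annotation gives this probe set 8 gene symbols, all of chromosome 2, so it names no single gene. Of 3 other probe sets annotated to some of the same genes, 1426558_x_at had a difference of -0.20 ± 0.19, 1436462_at 0.08 ± 0.11 and 1447977_x_at 0.002 ± 0.12. The drop was therefore seen in 1 of 4 probe sets that share these symbols, and their signals in the saline and folinic acid arrays overlapped in the other 3.

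**Figure D1:**
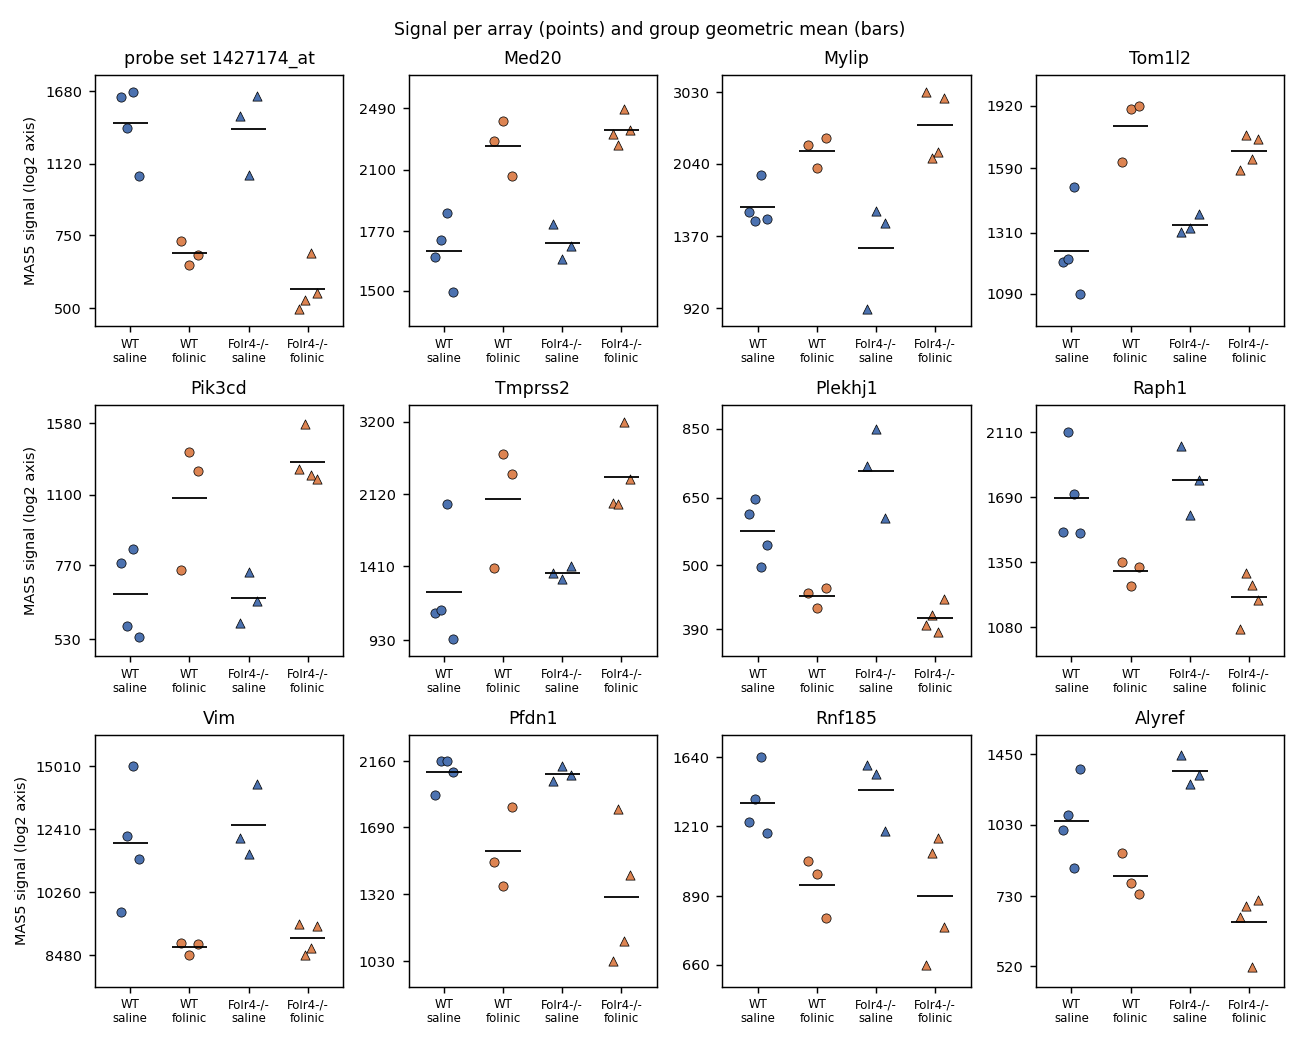
MAS5 signal (log2 axis) of the called probe set and of 11 genes with small p, 1 point per array; circles are wild type, triangles Folr4-/-, blue saline, orange folinic acid, and bars are the geometric means of the groups. For 1427174_at every folinic acid array lies at or below 729 and every saline array at or above 1045.

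Among measured genes, 525 (4.66%) were higher after folinic acid and 466 (4.14%) lower at an unadjusted p under 0.05, and none of these passed the adjusted threshold. The genes named next are therefore ranked candidates and not calls. In 10 genes (0.0887%) every folinic acid array lay above every saline array, and in 25 (0.222%) every one lay below. The 1127 brightest measured genes held 0 of the 10 and 11 of the 25. The median of that bright group was -0.08 as deposited and -0.002 after quantile normalization, so the larger number on the lower side depends in part on the scaling. The wild-type and mutant differences share no array, and across the 11269 genes they correlated weakly (Pearson r = 0.091, Spearman rho = 0.108; genes are not independent replicates). Of all measured genes 28.9% had higher and 25.2% lower values after folinic acid in both genotypes.

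Pik3cd had the smallest p among the genes with higher values. It encodes the delta catalytic subunit of phosphoinositide 3-kinase, used mainly by leukocytes. Its signal ranged from 753 to 1576 (median 1243) with folinic acid and from 535 to 837 (median 643) with saline. Of the 7 folinic acid arrays 6 lay above every saline array, and wild-type folinic acid replicate 1 was the exception. The difference was 0.85 ± 0.15 (adjusted p = 0.188 in limma), 0.70 in wild type and 1.0 in mutants. Leaving out each array in turn gave an adjusted p from 0.0289 to 0.502 in limma. The lowest, with a difference of 0.98, came without the array that was the exception. The other measured probe set of Pik3cd gave 0.02 ± 0.22.

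Med20, a subunit of the Mediator complex that links transcription factors to RNA polymerase II, was separated without overlap. Its signal was 2063 to 2486 (median 2318) with folinic acid and 1496 to 1859 (median 1698) with saline. The difference of 0.44 ± 0.08 (adjusted p = 0.223) was 0.42 in wild type and 0.45 in mutants, while the other probe set of the gene gave -0.04 ± 0.13. Mylip, a ubiquitin ligase that degrades the LDL receptor, also had no overlap, with 1989 to 3034 (median 2260) against 918 to 1915 (median 1508). Its difference was 0.71 ± 0.15 (adjusted p = 0.310), 0.45 in wild type and 0.98 in mutants. Tom1l2, an adaptor of endosomal sorting, had signals of 1582 to 1917 (median 1739) against 1088 to 1504 (median 1312) and a difference of 0.43 ± 0.09 (adjusted p = 0.366), 0.54 in wild type and 0.32 in mutants.

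The remaining genes of this rank with higher values were of mixed function. Tmprss2, a serine protease of epithelial surfaces, differed by 0.77 ± 0.18 and Fen1, the flap endonuclease of DNA replication and repair, by 0.66 ± 0.15. Sting1, the adaptor of cytosolic DNA sensing, differed by 0.83 ± 0.19, with 0.40 in wild type and 1.26 in mutants. The death-domain receptor gene Tnfrsf25 differed by 1.04 ± 0.25 and the lysosomal mannosidase gene Manba by 0.41 ± 0.10. Tnfrsf25 was dim, with 119 to 273 (median 256) after folinic acid and 74.1 to 169 (median 91.8) after saline. Its saline median lay under the level called measured, so it reached that level through the folinic acid arrays. For the glutamine transporter Slc1a5 the value was 0.57 ± 0.13, for the kinase anchor Akap11 0.54 ± 0.13 and for the sulfhydryl oxidase Qsox1 0.60 ± 0.14. The adjusted p was 0.366 for all 8. Over the 12 genes with higher values, 12 of 18 other probe sets had the same sign, 1 of them at an unadjusted p under 0.05. For Fen1 the other probe set was at -0.14 ± 0.22 and for Sting1 at 0.49 ± 0.26.

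Magef1, Rgs12, Tmem223, Mpdu1, Eno3, Zfp106 and Rhbdf1 completed the 10 genes whose folinic acid arrays all lay above the saline arrays. Their differences ran from 0.22 ± 0.08 for the rhomboid-like Rhbdf1 to 0.59 ± 0.17 for Magef1, with adjusted p from 0.418 to 0.590. Rgs12, a regulator of G protein signalling, had signals of 459 to 602 with folinic acid and 295 to 448 with saline. Mpdu1, needed for the use of dolichol-linked sugars in glycosylation, had 1139 to 1525 against 859 to 1048. Eno3, the muscle form of the glycolytic enzyme enolase, had 411.3 to 524 against 323 to 410.8, a separation of less than 1 signal unit.

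Sumf2 had the smallest p among genes with lower values. It encodes a protein of the endoplasmic reticulum related to the enzyme that activates sulfatases. Its signal was 157 to 265 (median 203) with folinic acid and 237 to 497 (median 447) with saline, and 6 of 7 folinic acid arrays lay below every saline array. The difference was -0.95 ± 0.18 (adjusted p = 0.221), -0.68 in wild type and -1.22 in mutants. Its other probe set gave -0.03 ± 0.22. Alyref, an adaptor that hands spliced mRNA to the export machinery, had 519 to 901 (median 718) against 836 to 1446 (median 1256). Its difference of -0.72 ± 0.14 (adjusted p = 0.262) was -0.39 in wild type and -1.05 in mutants; the interaction of -0.66 ± 0.24 did not pass (adjusted p = 0.938 in limma), nor did that of any probe set (0 of 45037, lowest adjusted p 0.275, 2277 at an unadjusted p under 0.05).

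Vim, the intermediate filament of stromal cells, had lower values in all 3 of its probe sets. Its signal was 8483 to 9323 (median 8777) with folinic acid and 9659 to 15008 (median 12087) with saline, without overlap. The difference of -0.47 ± 0.11 (adjusted p = 0.366) was -0.45 in wild type and -0.49 in mutants, and 2 further probe sets gave -0.33 ± 0.14 and -0.44 ± 0.13. After quantile normalization it was -0.37. Raph1, a regulator of lamellipodia, had 1076 to 1354 (median 1248) against 1493 to 2110 (median 1707), also without overlap. Its difference was -0.47 ± 0.10 (adjusted p = 0.366), but its other probe sets were at -0.04 ± 0.12 and 0.10 ± 0.20.

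The other genes of this rank with lower values were also of mixed function. Pfdn1, a subunit of the prefoldin chaperone, had 1032 to 1823 against 1908 to 2163, and Psmc4, an ATPase of the proteasome, 2491 to 4596 against 4430 to 7454. Their differences were -0.54 ± 0.12 and -0.67 ± 0.15, and the other measured probe set of Psmc4 gave -0.13 ± 0.11. Cul5, a scaffold of ubiquitin ligases, differed by -0.79 ± 0.18, Rnf185, a ubiquitin ligase of the endoplasmic reticulum, by -0.60 ± 0.14 and Mrpl57, a mitochondrial ribosomal protein, by -0.63 ± 0.13. The splicing regulator Hnrnpl differed by -0.66 ± 0.15 and Plekhj1 by -0.59 ± 0.12. Gm12338 was at -0.42 ± 0.10 (-0.32 after quantile normalization). The adjusted p of these 8 lay at 0.310 or 0.366. For the 12 genes with lower values 10 of 12 other probe sets had the same sign, 3 of them at an unadjusted p under 0.05. Those 3 were 2 of Vim and 1 of Cul5, and a further measured probe set of Cul5 gave 0.13 ± 0.18. The other probe set of Rnf185 was at -0.06 ± 0.11 and that of Mrpl57 at -0.09 ± 0.19.

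The 10 largest differences among the 25 genes without overlap on the lower side added Col3a1, Pltp, Rpl7a and Anp32e to 6 genes already named. Col3a1, a fibrillar collagen of stroma, had 30626 to 39863 (median 34899) with folinic acid and 42003 to 60459 (median 45636) with saline. Its difference was -0.49 ± 0.12 in the deposited scaling and -0.02 after quantile normalization, and its other measured probe set gave 0.008 ± 0.19. Rpl7a, a protein of the large ribosomal subunit, went from -0.42 ± 0.12 to -0.02 in the same way. Pltp, the phospholipid transfer protein, was at -0.44 ± 0.14 and -0.34 after quantile normalization, and the histone chaperone Anp32e at -0.40 ± 0.11 and -0.42. The other measured probe sets of Pltp and Anp32e gave -0.05 ± 0.20 and 0.18 ± 0.13.

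**Figure D2:**
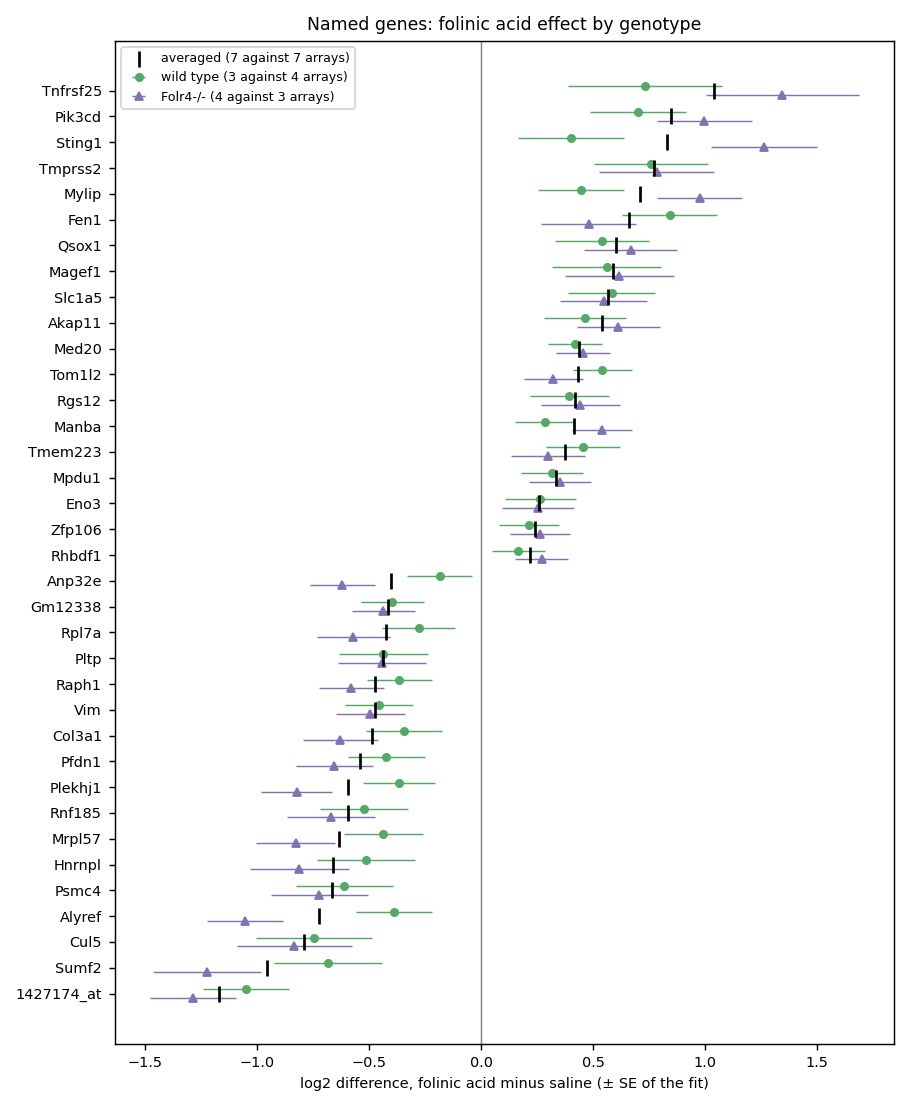
Log2 difference, folinic acid minus saline, in wild type (circles, 3 against 4 arrays), in Folr4-/- (triangles, 4 against 3 arrays) and averaged (black ticks) for the called probe set and the genes ranked by p or by separation of the arrays; lines are ± SE of the fit. Both genotypes lie on the same side of 0 for every gene shown, from -1.05 and -1.29 for 1427174_at to 0.73 and 1.34 for Tnfrsf25. The choice by p or by separation favours a shared sign, so the shared sign is no separate evidence. Of all 11269 measured genes 5171 had opposite signs in the genotypes.

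Probe sets that do not represent their gene held several of the next smallest p-values, and they are named here after their values were seen. For Faap20, of the Fanconi anaemia pathway, 1438154_x_at differed by 1.18 ± 0.20 (adjusted p = 0.177), with 1.22 in wild type and 1.14 in mutants. The 2 other probe sets of Faap20 gave 0.17 ± 0.15 and 0.10 ± 0.12. Hnrnpu, which packages nuclear RNA, had -0.79 ± 0.14 in 1450849_at, without overlap of the arrays (980 to 1471 against 1562 to 3094). Its other probe sets were at -0.14, -0.23, 0.29 and 0.05. Ppp2r2a, a regulatory subunit of protein phosphatase 2A, had -0.73 ± 0.13 in 1453260_a_at, and 0.05 and 0.27 in the others. Gm3924 (2.58 ± 0.44), Garem2 (-2.57 ± 0.44) and Gm17767 (-3.13 ± 0.55) had signals below 100 on all arrays, under the level called measured.

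A difference between the arrays as a whole accompanied these results. The mean signal of an array was 769 ± 21.4 (SD, n = 7; 750.5 to 806) with folinic acid and 823 ± 28.2 (SD, n = 7; 785 to 865) with saline (exact permutation within genotypes, two-sided, p = 0.00327, 0.0163 after adjustment over 5 array measures). The 99th percentile of signal was 10669 ± 566 (SD, n = 7) against 11473 ± 502 (SD, n = 7) (exact permutation p = 0.0147, adjusted 0.0367). Both measures were chosen after their values were seen. The median signal was 139 in each group (exact permutation p = 0.746). The ratio of 3-prime to 5-prime signal of actin, which rises as RNA degrades, was 2.06 ± 0.57 with folinic acid and 2.50 ± 0.72 with saline (SD, n = 7 each; exact permutation p = 0.182).

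Along the range of signal, the 1127 brightest of the 11269 measured genes stood apart. Their median difference was -0.08, with 68.0% of them lower after folinic acid and 161 lower against 25 higher at an unadjusted p under 0.05. In the 9 other groups of this size, by signal, the median lay between -0.004 and 0.03. After quantile normalization, which gives all arrays the same distribution of signals, the brightest group had a median of -0.002, with 51 lower and 48 higher. For many of the bright genes named below both scalings are therefore given, and the part of the array difference in them was not tested.

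**Figure D3:**
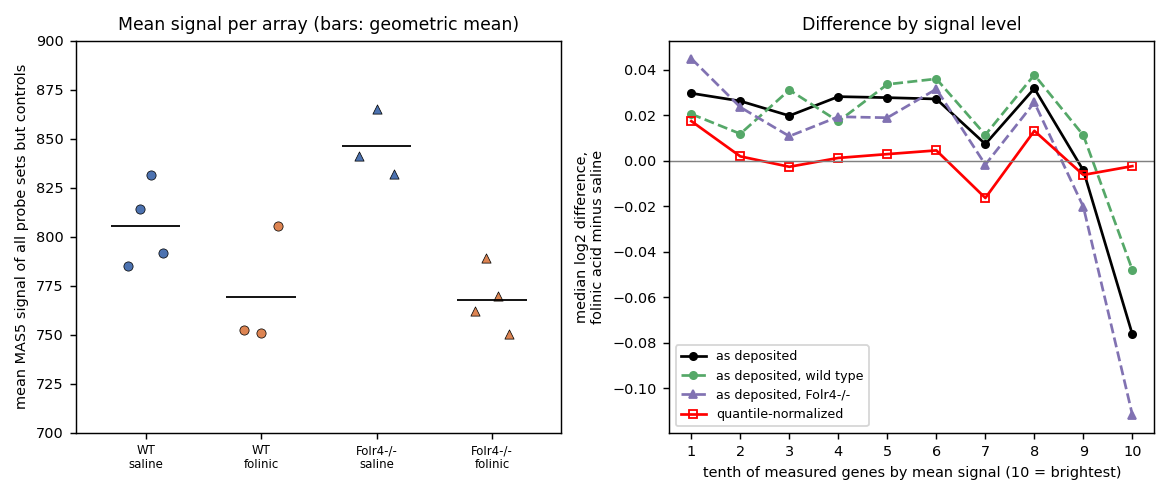
Left, mean signal of each array by group (axis from 700, not from 0; bars are geometric means); right, median log2 difference, folinic acid minus saline, in 10 groups of the measured genes ordered by mean signal, as deposited, by genotype, and after quantile normalization. The brightest group lies at -0.08 as deposited and at -0.002 after quantile normalization.

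Gene lists were read by their counts and medians beside those of all measured genes, whose median was 0.01, with 5885 higher and 5384 lower. No member of any list passed the adjusted threshold, so higher and lower refer to the sign of the difference. Differences of a list's median between the genotypes were not tested. For many lists the median without single arrays is also given. The lists hold 687 different measured genes.

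Cytosolic ribosomal proteins, the structural proteins of the translating ribosome, were lower in 23 of 23 measured members in the deposited scaling, with 20 at an unadjusted p under 0.05 and a median of -0.36. After quantile normalization the median was -0.01, with 12 lower, 11 higher and 0 at that p (limma). The median of the deposited values was -0.24 in wild type and -0.51 in mutants, and it was -0.34 for the large and -0.40 for the small subunit. Rplp0 of the ribosomal stalk had signals of 26612 to 40368 with folinic acid against 34995 to 55084 with saline. It was at -0.50 ± 0.13, and at -0.06 after quantile normalization, while Rps4x was at -0.48 ± 0.14 and 0.004 and Rps2 at -0.44 ± 0.13 and -0.04. The summed signal of the list was 533226 to 713138 in the folinic acid arrays and 664497 to 902498 in the saline arrays.

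Nuclear genes of oxidative phosphorylation showed a smaller shift toward lower values. In 29 of 35 members values were lower, 6 at an unadjusted p under 0.05 (limma), with a median of -0.11. After quantile normalization the median was -0.05, with 12 higher, 23 lower and 1 lower at that p. Without mutant folinic acid replicate 2 the deposited median was -0.18. The parts of the list differed. Complex I was lower in 14 of 14 members as deposited and in 13 of 14 after quantile normalization, with medians of -0.11 and -0.09. For complexes IV and V the median went from -0.21 to -0.02 with the scaling, and for complexes II and III it was 0.05 and 0.06. The list is bright, with a median signal of 5156. In the brightest group of all measured genes 68.0% were lower, 161 of 1127 at that p, with a median of -0.08. Uqcrb of complex III was at -0.35 ± 0.11 and -0.0003 after quantile normalization, Ndufab1 of complex I at -0.30 ± 0.10 and -0.30, and Cox5b of complex IV at -0.25 ± 0.09 and -0.10. The 2 other measured probe sets of Ndufab1 were on the opposite side, at 0.36 ± 0.13 and 0.35 ± 0.20, and that of Uqcrb was at 0.04 ± 0.10. Cox5b was separated without overlap (11940 to 14042 against 14276 to 16644). Among the heat shock genes 12 of 14 were lower, with a median of -0.12 (-0.19 without wild-type saline replicate 3, -0.08 without mutant folinic acid replicate 4, -0.07 after quantile normalization). The abundant Hspa8 went from -0.48 ± 0.15 to -0.02 after quantile normalization and the co-chaperone Dnaja1 from -0.26 ± 0.11 to -0.15.

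Oestrogen-response genes of the uterus had higher values after folinic acid in 19 of 22 members, with a median of 0.29 (0.27 after quantile normalization). At an unadjusted p under 0.05 there were 6 higher and 1 lower. The secreted products of this list, 7 measured, were higher in 7 of 7, with a median of 0.80, of 0.50 in wild type and 1.05 in mutants. Clu, the secreted chaperone clusterin, had 4939 to 20884 (median 7742) with folinic acid and 3186 to 7090 (median 4818) with saline. All 7 folinic acid arrays lay above the saline median and 4 above every saline array. The difference was 0.81 ± 0.29 (adjusted p = 0.506), 0.87 after quantile normalization, and the 3 other probe sets of Clu gave 0.89 ± 0.36, 0.90 ± 0.30 and 1.0 ± 0.32.

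Padi1, a peptidylarginine deiminase induced by oestrogen, had the smallest p of the list. Its signal was 451 to 4128 (median 839) against 149 to 631 (median 363), and 5 of 7 folinic acid arrays lay above every saline array. The difference was 1.32 ± 0.40 (adjusted p = 0.432), 0.99 in wild type and 1.64 in mutants. Mutant folinic acid replicate 4, at 4128, stood far above the other folinic acid arrays (451 to 998). Ltf, the secreted iron-binding lactoferrin, was at 0.80 ± 0.34 (0.99 after quantile normalization) and the water channel Aqp5 at 0.60 ± 0.22, with both genotypes on the higher side. Without mutant folinic acid replicate 2 the median of the list was 0.44, and without replicate 4 of that group 0.22. The wild-type median was 0.08 with 15 of 22 higher, and the mutant median 0.63 with 19 of 22.

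Progesterone-response genes had lower values in 16 of 21 members, with a median of -0.27. The genotypes were apart: the median was 0.01 in wild type, with 12 of 21 higher, and -0.71 in mutants, with 17 of 21 lower. Ihh, the hedgehog ligand that the epithelium makes under progesterone, had 115 to 842 (median 606) with folinic acid and 453 to 1256 (median 1035) with saline. Its difference was -0.87 ± 0.41 (adjusted p = 0.632), -0.13 in wild type and -1.61 in mutants. The transcription factor genes Gata2 and Hoxa10 were at -0.48 ± 0.25 and -0.27 ± 0.15. The median of the list was -0.16 when mutant saline replicate 2 or 3, or mutant folinic acid replicate 4, was left out. Of the 8 epithelial members, 7 were lower on average, with a median of 0.37 in wild type and -1.47 in mutants.

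Steroid receptors and their cofactors were lower in 11 of 13 members, with a median of -0.17 in either scaling (-0.07 in wild type and -0.30 in mutants) and 0 at an unadjusted p under 0.05 (limma). The receptor genes Pgr (-0.34 ± 0.18; -0.29 in wild type and -0.39 in mutants) and Esr1 (-0.19 ± 0.10) and the co-chaperone Fkbp4 (-0.31 ± 0.16) had the smallest p. Pgr was at -0.23 and Esr1 at -0.05 after quantile normalization. The other measured probe set of Esr1 was on the opposite side, at 0.07 ± 0.10, and those of Pgr and Fkbp4 were at -0.23 ± 0.26 and -0.32 ± 0.24. Of the genes of receptivity and LIF signalling 12 of 17 were lower, with a median of -0.01. Wnt5a, a ligand of the stroma, was at -0.40 ± 0.17 and its 3 other probe sets had the same sign. Pla2g4a, the phospholipase that frees arachidonic acid for prostaglandins, was at 0.21 in wild type and -1.20 in mutants (interaction -1.40 ± 0.41, adjusted p = 0.938 in limma). The Wnt pathway as a whole had a median of 0.02, with 18 of 32 higher, of -0.08 in wild type and 0.18 in mutants (-0.08 without mutant folinic acid replicate 4). Its epithelial ligand Wnt7b was at 0.65 ± 0.23, while the bright Ctnnb1 went from -0.23 ± 0.11 to -0.01 after quantile normalization.

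**Figure D4:**
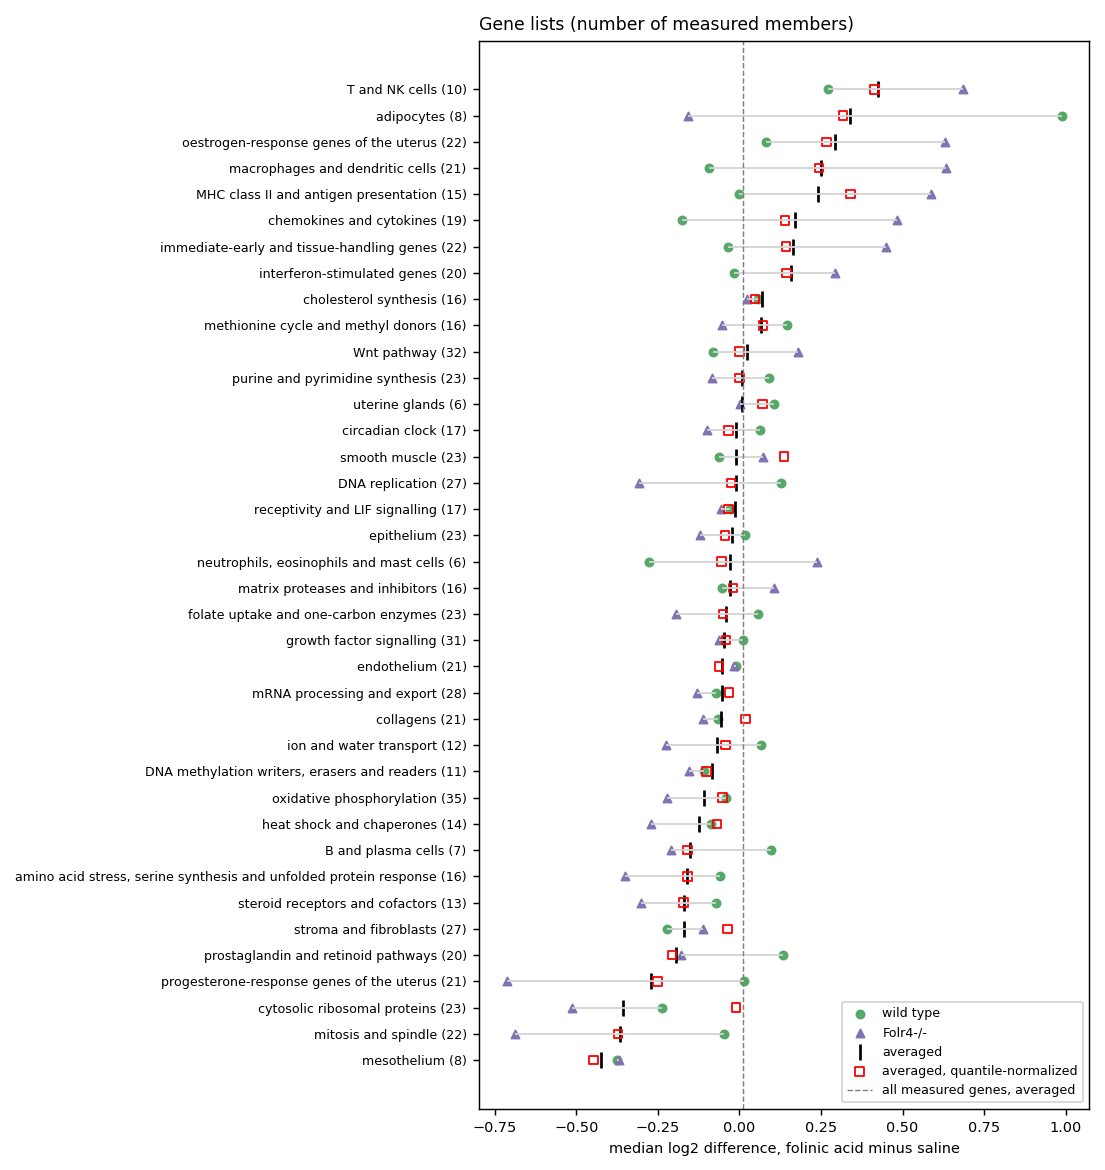
Median log2 difference, folinic acid minus saline, of the gene lists with at least 5 measured members (number in brackets): wild type (circles), Folr4-/- (triangles), averaged (black ticks) and averaged after quantile normalization (red squares); the dashed line is the averaged median of all measured genes, 0.01. The ribosomal proteins move from -0.36 to -0.01 with the scaling, while the oestrogen-response genes stay near 0.29.

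Enzymes and carriers of folate metabolism, through which cells take up and use the supplement, showed no member at an unadjusted p under 0.05 (0 of 23; 0 past the adjusted threshold in limma). Their median was -0.04, with 15 lower and 8 higher, 0.06 in wild type and -0.19 in mutants, and it was -0.12 without wild-type saline replicate 3. The proton-coupled folate carrier Slc46a1 had 121 to 290 (median 206) with folinic acid against 199 to 355 (median 257) with saline. Its difference was -0.41 ± 0.20, -0.06 in wild type and -0.76 in mutants. Gcsh, a carrier protein of glycine cleavage, was at -0.22 ± 0.12 and the mitochondrial formyltetrahydrofolate synthetase Mthfd1l at -0.27 ± 0.15, with -0.008 and 0.002 in wild type. Folr2, the folate receptor of macrophages, was at 0.10 ± 0.28. Folr1, the receptor of epithelia, had signals of 65.9 to 131 against 59.1 to 322, and Folh1, which trims dietary folate, 1.15 to 31.5 against 1.37 to 27.5, both under the level called measured.

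Genes of the methionine cycle and methyl donors had a median of 0.07, with 9 of 16 higher, and 14 of 16 higher in wild type. Methionine synthase, Mtr, which takes its methyl group from folate, was at -0.45 ± 0.20 (adjusted p = 0.622), -0.13 in wild type and -0.77 in mutants. Gamt, which uses methyl groups to make creatine, was at -0.42 ± 0.21. The list of purine and pyrimidine synthesis had a median of 0.009, with 13 of 23 higher. Thymidine kinase, Tk1, which is made in dividing cells, was at -0.67 ± 0.32, -0.05 in wild type and -1.28 in mutants.

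Among writers, erasers and readers of DNA methylation 8 of 11 members were lower, with a median of -0.08, and 4 of 11 had an unadjusted p under 0.05. The median was -0.19 without mutant folinic acid replicate 4, -0.04 without wild-type saline replicate 1 and -0.18 with the actin covariate. Dnmt1, which copies methylation marks to the new strand after replication, had 724 to 1152 (median 1009) with folinic acid and 1166 to 1517 (median 1274) with saline. The groups did not overlap. The difference was -0.38 ± 0.12 (adjusted p = 0.444), -0.18 in wild type and -0.57 in mutants, and its 2 other probe sets gave -0.28 ± 0.13 and -0.40 ± 0.15. Mbd3, a subunit of the NuRD complex, was at -0.47 ± 0.14 and the methyl-CpG reader Mbd2 at 0.36 ± 0.13. The other measured probe set of Mbd2 gave -0.009 ± 0.16. The quantile-normalized values of these 3 genes were -0.40, -0.49 and 0.34.

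Mitosis and spindle genes were lower in 22 of 22 members, with a median of -0.36 in the average. The mutants had a median of -0.69, with 22 of 22 lower, and the wild type -0.05, with 15 of 22 lower. Ube2c, which feeds the anaphase-promoting complex, had 246 to 1120 (median 561) with folinic acid and 478 to 1766 (median 1065) with saline. Its difference was -0.85 ± 0.30 (adjusted p = 0.506), and the mitotic kinase Aurka was at -0.55 ± 0.24 and the cyclin Ccna2 at -0.44 ± 0.20. The median of the list was -0.15 without mutant saline replicate 3, -0.21 without mutant folinic acid replicate 2 and -0.53 without wild-type folinic acid replicate 3. The DNA replication list had no common direction, with 13 higher and 14 lower and medians of 0.13 in wild type and -0.31 in mutants. Ccne2, the cyclin of S phase entry, was at 0.005 in wild type and -1.09 in mutants (interaction -1.09 ± 0.40, adjusted p = 0.938 in limma).

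**Figure D5:**
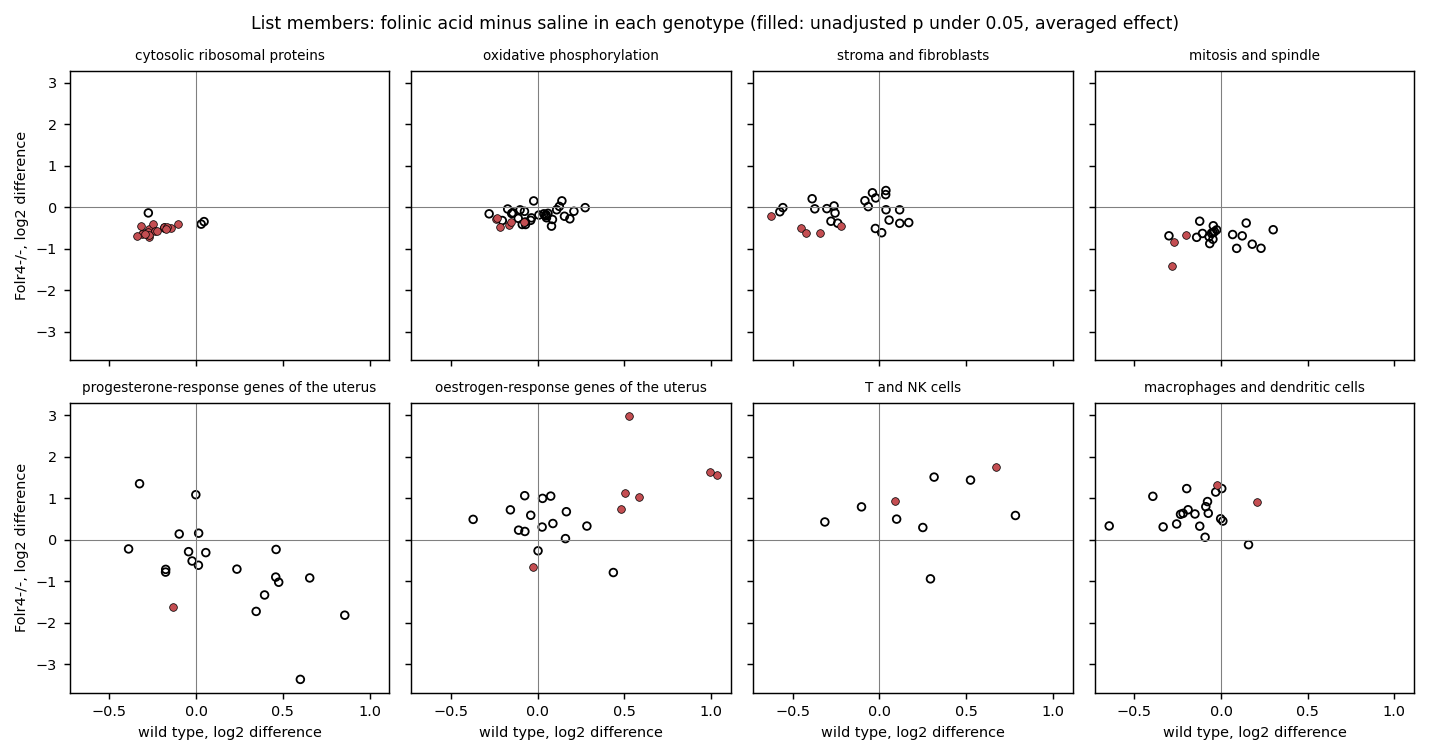
Each point is a measured member of the list named above its panel, with the log2 difference, folinic acid minus saline, in wild type on the x axis and in Folr4-/- on the y axis (the 2 axes have different scales); filled points have an unadjusted p under 0.05 for the averaged effect. The 22 mitosis genes all lie below 0 in mutants, with a median of -0.69; in wild type 15 of 22 lie below 0, with a median of -0.05.

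Of the cell types of the uterus, stroma and fibroblasts had lower values in 21 of 27 members, with 5 at an unadjusted p under 0.05. The median was -0.17, -0.22 in wild type and -0.11 in mutants, and it was -0.04 after quantile normalization and -0.28 with the actin covariate. After quantile normalization 16 were lower and 11 higher, with 3 lower at that p (limma). This list is also bright, with a median signal of 5280. In the brightest group of all measured genes 68.0% were lower as deposited, 161 of 1127 at that p. Beside Vim and Col3a1, the matrix protein gene Dpt was at -0.52 ± 0.15 (-0.31 after quantile normalization), with 11585 to 24042 against 17787 to 30910. Summed over the list, the signal was 221764 to 265097 with folinic acid and 267405 to 317154 with saline. Collagens had 12 of 21 lower, with a median of -0.06 that became 0.02 after quantile normalization. Col6a3 was at 0.32 ± 0.16, and Col1a2 turned from -0.20 ± 0.10 to 0.11 with the scaling.

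The median of the smooth muscle genes of the myometrium was -0.01 (12 of 23 lower) as deposited and 0.14 (21 of 23 higher) after quantile normalization. Acta2, smooth muscle actin, was at -0.45 ± 0.15 and 0.04 in these scalings, and Myocd, the coactivator of smooth muscle genes, at -0.57 ± 0.26 and -0.58. For epithelium 14 of 23 genes were lower, with a median of -0.02, of 0.02 in wild type and -0.12 in mutants (-0.13 without mutant folinic acid replicate 4). Krt19, a keratin of simple epithelia, was at -0.47 ± 0.19 and the desmosomal Dsp at 0.51 ± 0.24. The gland list had 6 measured members without a common direction, 3 higher and 3 lower, with a median of 0.008. Among them the apical membrane gene Prom1 was at 0.56 ± 0.18 and the gland regulator Foxa2 at 0.37 ± 0.25. In endothelial genes 12 of 21 were lower (median -0.05).

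Most lists of immune cells and immune functions had positive medians, but those of B and plasma cells (-0.15) and of neutrophils, eosinophils and mast cells (-0.03) did not. For macrophages and dendritic cells 18 of 21 were higher, with a median of 0.25, of -0.09 in wild type and 0.63 in mutants. That median was 0.01 without mutant folinic acid replicate 1, 0.07 without mutant saline replicate 1, 0.42 without wild-type saline replicate 4, and 0.04 with the actin ratio as a covariate. Ccr2, the chemokine receptor of monocytes, had 1158 to 2824 (median 2243) against 699 to 2279 (median 1412). It was at -0.03 in wild type and 1.32 in mutants (interaction 1.34 ± 0.40, adjusted p = 0.938 in limma). The integrin gene Itgax of dendritic cells was at 0.56 ± 0.23. The summed signal of the list was 19176 to 89646 with folinic acid and 17093 to 45901 with saline, so the groups overlapped. The part of these cells in the differences of Pik3cd, Sting1 and Tnfrsf25 was not tested.

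MHC class II and antigen presentation genes were higher in 15 of 15 members, with 0 at an unadjusted p under 0.05 (limma) and a median of 0.24, of -0.003 in wild type and 0.59 in mutants. The class II chain H2-Eb1 was at 0.47 ± 0.37 and the peptide loader H2-DMa at 0.50 ± 0.34. The list's median was 0.12 without mutant folinic acid replicate 1, 0.43 without wild-type saline replicate 4 and 0.15 with the actin covariate. Interferon-stimulated genes were higher in 18 of 20, with a median of 0.16, of -0.02 in wild type and 0.29 in mutants. The average was 0.04 without mutant folinic acid replicate 1, 0.31 without replicate 2 of that group and 0.09 with the actin covariate. Of chemokines and cytokines 15 of 19 were higher, with a median of 0.17. The wild-type median was -0.18, with 11 of 19 lower, and the mutant median 0.48, with 17 of 19 higher. The average was 0.03 without mutant folinic acid replicate 1, 0.28 without wild-type folinic acid replicate 1 and 0.07 with the actin covariate. In that list the neutrophil attractant Cxcl1 was at 0.60 ± 0.25 and the T cell attractant Ccl5 at 0.99 ± 0.46.

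T and NK cell genes were higher in 9 of 10 measured members, with a median of 0.42, 0.27 in wild type and 0.69 in mutants (0.27 with the actin covariate). Il7r, the receptor of the survival cytokine IL-7, had 102 to 739 (median 205) with folinic acid and 30.9 to 176 (median 122) with saline. Its difference was 1.21 ± 0.44 (adjusted p = 0.518), and Eomes, a transcription factor of NK cells, was at 0.50 ± 0.23. The saline median of Il7r lay under the level called measured, so this gene reached that level through the folinic acid arrays. Several defining genes of these cells were under the level called measured, among them Cd3e, Cd4 and Cd8a. Their median signals, folinic acid against saline, were 182 against 76.8, 19.9 against 18.9 and 138 against 149, so these genes had no common rise. The count of measured members therefore depends in part on the level chosen. B and plasma cell genes had no common direction (3 of 7 higher), and Blk, a kinase of B cells, was at 1.43 ± 0.50. Cd79a and Cd79b, the signalling chains of the B cell receptor, were also under that level.

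The immediate-early genes, which also respond to handling of the tissue, were higher in 16 of 22 members, with a median of 0.17, of -0.03 in wild type and 0.45 in mutants. Klf6 was at 0.40 ± 0.13 and Nfkbia, the inhibitor of NF-kappa B, at 0.32 ± 0.14 (0.45 after quantile normalization). The median was 0.09 without mutant folinic acid replicate 1 and 0.26 without wild-type saline replicate 3. Adipocyte genes were higher in 8 of 8, with a median of 0.34, but of 0.99 in wild type and -0.16 in mutants. Retn, the adipocyte hormone resistin, ranged from 324 to 5174 with folinic acid and from 17.9 to 2061 with saline, and the list's median was 0.03 without wild-type saline replicate 2, 0.74 without mutant saline replicate 3, 0.05 without wild-type folinic acid replicate 3 and 0.56 with the actin covariate. The summed signal of the adipocyte list was 9598 to 69710 against 4309 to 47642. Mesothelial genes, of the outer lining, were lower in 5 of 8, with a median of -0.42 (-0.26 without mutant saline replicate 2). Upk1b was at -0.60 ± 0.24 and Krt14 at 1.82 ± 0.81.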

How the data were processed

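The authors deposited linear intensity values, 1 for each probe set on each array, made from biotin-labelled RNA of 14 uterus samples; the submitters' processing notes name MAS5, with the version not given in the sources used here. The mean after trimming 2% at each end was 500.002 to 500.003 on every array. Signals below 1 (0.505% of values) were raised to 1 and put on the log2 scale, with no further normalization. Of 45037 probe sets, 34945 carried 1 gene symbol in the platform annotation, 932 several and 9160 none, and 34741 of the first were matched to RefSeq. The number of arrays limits the precision.

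An additive model of folinic acid and genotype was fitted with limma 3.58.1 in R 4.3.3, with moderated variances and a trend on signal (11 residual and 6.207 prior degrees of freedom). Values by genotype and the interaction are contrasts of a fit with 4 group means. A gene was represented by its brightest probe set. Named genes are, among measured genes, the 12 smallest p in each direction, up to 10 in each direction whose arrays do not overlap, up to 3 of each list, and 4 folate receptor or folate hydrolase genes; lists with under 5 measured members (red blood cells, ovary, oviduct, preimplantation embryo) name none, which was decided after values were seen. The comparison, the named-gene rule and the 42 lists (980 entries, 722 measured) were chosen with earlier results of these data known. Array measures were tested by exact permutation within genotypes (1225 relabellings). The alternatives were quantile normalization, an offset of 16, signal filters, 1 probe set per gene, other models and variances, array weights, the actin ratio as covariate, a replicate block, averaging of arrays that share a title number, and leaving out each array. The fit was tested on simulated data.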

Additional observations from a re-analysis of the deposited data

Results flagged for a closer look

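In 312 groups of 7 arrays, the folinic acid or the saline arrays of each named probe set, 28 held 1 array whose gap to the nearest other array was large for the range of the group. A chance rate of about 1 in 20, for independent values of a single population, would give 15.6 of these groups. The groups mix genotypes and most of their probe sets were chosen by values on the same arrays, so the 28 cannot be weighed against it. Wild-type saline replicate 3 accounted for 7 of the 28, always as the lowest saline array. These were Tmem223 (1356; the others from 1828), Zfp106 (1400; from 1812), Gamt (179; from 366), Mbd3 (488; from 674), Fkbp4 (2131; from 2774), Aldh1a2 (1497; from 1896) and Stra6 (713; from 880.0). Wild-type saline replicate 3 had the highest actin ratio of all arrays, 3.64, and the same ratio for Gapdh was also highest there, 2.48. This array also had the highest median signal, 157, the lowest mean Spearman correlation with the other arrays, 0.932, and the lowest array weight, 0.46. The part of these array properties in its 7 low values was not tested. Mutant folinic acid replicate 4 accounted for 6 of the 28. It was highest for Mpdu1 (1525; the others up to 1255), Padi1 (4128; up to 998) and Eomes (770; up to 349), and lowest for Pltp (5119; from 7763), Dnmt1 (724; from 961) and Hsp90b1 (4588; from 8479).

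Wild-type saline replicate 4 was the highest saline array for the immune genes Gbp2 (6888; up to 1801), H2-DMa (1394; up to 572) and Tap2 (1348; up to 793). Mutant folinic acid replicate 1 was lowest for Pla2g4a (1205; from 2354) and Sox17 (3056; from 10280) and highest for Cx3cr1 (1268; up to 330). Wild-type folinic acid replicate 3 was highest for Rplp0 (40368; up to 31134) and Retn (5174; up to 1068), and wild-type saline replicate 2 lowest for Retn (17.9; from 385). The other groups were Pik3cd in wild-type folinic acid replicate 1 (753; from 1191), Mylip in mutant saline replicate 1 (918; from 1469), Slc26a6 in wild-type saline replicate 1 (136; from 235), Kit in mutant saline replicate 2 (90.2; from 186), Rdh10 in mutant saline replicate 2 (4001; up to 2776) and Folh1 in mutant folinic acid replicate 2 (31.5; up to 3.41).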

How the results depend on the processing

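The single call of 1427174_at stood at 1 probe set under quantile normalization, an offset of 16, both signal filters, 4 group means, no genotype term, robust variances, array weights, the actin covariate and averaged title pairs. It was 0 with 1 probe set per gene (1427174_at names no single gene and is not in that set), 0 in wild type alone (-1.05, adjusted p = 0.999974) and 0 without the variance trend (-1.17, adjusted p = 0.0589); in mutants alone 2 other probe sets passed and 1427174_at did not (-1.29, adjusted p = 0.0641). Leaving out single arrays gave 1 to 2 calls: Pik3cd joined at 0.98 without wild-type folinic acid replicate 1 and Faap20 at 1.30 without wild-type saline replicate 4. Deviations from the group means correlated at -0.337 to 0.354 (median 0.0113) between same-numbered replicates of different groups. Between replicates of different number they correlated at -0.47 to 0.473 (median -0.0245). A replicate block gave 1 call. Probe sets at an unadjusted p under 0.05 numbered 1549 higher and 1993 lower, against 2252 expected in all. They were 971 and 1081 with the median filter, 488 and 756 in the upper 25% by signal, 695 and 753 with 1 probe set per gene, 537 and 1018 in wild type alone, and 2272 and 2351 in mutants alone; fewer probe sets entered the first 3. Without 1 array they ranged from 1246 to 1988 higher and from 1702 to 2360 lower. Signs turned under quantile normalization for Col1a2 (0.11), Rps4x (0.0045), Acta2 (0.043) and Tpm2 (0.0023). In wild type alone they turned for Mthfd1l (0.0018), Gmps (0.0057), Ccne2 (0.0047), Pla2g4a (0.21), Lpar3 (0.15), Wee1 (0.29), Samhd1 (-0.062), H2-Eb1 (-0.16), Tap2 (-0.0026), Atp1b1 (0.039), Slc26a6 (0.070), Sox17 (0.014), Ccr2 (-0.026), Ighm (-0.40), Igha (0.19), Kit (-0.057) and Folr2 (-0.12), and in mutants alone for Retn (-0.40) and Car3 (-0.11). Folr2 was also at -0.16 with the actin covariate and between -0.059 and 0.24 without 1 array. The cause was not tested.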

Other observations

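Some lists not described above had values close to those of all measured genes. Circadian clock genes had a median of -0.01 (8 of 17 higher), where Bhlhe40, a repressor of the clock, was at 0.31 ± 0.15. Wee1, the kinase that restrains entry into mitosis, was at 0.29 in wild type and -1.40 in mutants (interaction -1.68 ± 0.38, adjusted p = 0.938 in limma). Cholesterol synthesis had a median of 0.07 (9 of 16 higher; -0.02 without wild-type folinic acid replicate 3), and Dhcr7, the last enzyme of the pathway, was at -0.59 ± 0.19 with 169 to 370 in the folinic acid arrays and 300.4 to 513 in the saline arrays. Matrix proteases and their inhibitors had a median of -0.03 with 0 of 16 members at an unadjusted p under 0.05 (limma). The genes of mRNA processing and export had a median of -0.05 with 18 of 28 lower, and Thoc2 of the export complex THO was at -0.46 ± 0.11, with the same value in both genotypes (-0.46) and its 2 other probe sets on the opposite side.

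Prostaglandin and retinoid genes had a median of -0.19 (13 of 20 lower), of 0.13 in wild type and -0.18 in mutants, and of -0.11 without wild-type folinic acid replicate 2. The retinol dehydrogenase Rdh10 and the retinaldehyde dehydrogenase Aldh1a2, which make retinoic acid, were at 0.34 ± 0.13 and 0.27 ± 0.12, and the retinol uptake receptor Stra6 at -0.35 ± 0.16. In growth factor signalling the median was -0.05 (18 of 31 lower), and Fgfrl1, a receptor without kinase domain, was at 0.57 ± 0.16, with 0.14 in wild type and 0.99 in mutants (interaction 0.85 ± 0.25, adjusted p = 0.938 in limma). Genes of ion and water transport had a median of -0.07 (8 of 12 lower); the sodium pump subunit Atp1b1 was at 0.04 in wild type and -1.63 in mutants. Amino acid stress and unfolded protein genes were lower in 13 of 16, with a median of -0.16, of -0.06 in wild type and -0.35 in mutants, and of -0.08 without mutant folinic acid replicate 4. In that list Hspa5, the main chaperone of the endoplasmic reticulum, went from -0.29 ± 0.19 to -0.08 after quantile normalization.

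Markers of other cells and tissues that a uterus sample can hold were mostly under the level called measured. Of the neutrophil, eosinophil and mast cell genes 3 of 6 measured members were higher, with a median of -0.03. For red blood cells 2 of 3 were higher (median 0.04), for ovary 2 of 3 (median 0.14) and for oviduct 1 of 3 (median -0.08). The preimplantation embryo list had 1 measured member, at 0.008.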
